A study of Mus musculus with 18 samples.

Results

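The granule proteases of mast cells and basophils were examined in Lin-Kit+ marrow progenitors of mice with a JAK2V617F-driven myeloproliferative neoplasm (MPN). They were the probe sets annotated to a single one of the symbols Tpsab1, Tpsb2, Cma1, Cpa3 or Mcpt8, and each gene had 1 probe set, so that 5 of the 10335 probe sets in the deposited table, and 5 of the 9636 genes with a probe set of their own, were members. Marrow came from Balb/c mice with established disease, in which a retrovirus had carried JAK2V617F together with GFP into transplanted donor cells. Each of 3 independent experiments used the marrow of 3 to 4 mice. All of it was cultured for 16 h with interleukin-3 (IL-3, 50 ng/mL) and stem cell factor (SCF, 100 ng/mL), either with a blocking antibody (BA) against TNF receptor 2 (TNFR2 BA, 10 μg/mL), with one against TNF receptor 1 (TNFR1 BA, 10 μg/mL), or with neither (untreated). Lin-Kit+ cells were then sorted into a GFP+ fraction, called JAK2V617F+, and a GFP- fraction of the same marrow, called JAK2V617F-. This gave 6 groups of 3 arrays: TNFR2 BA, TNFR1 BA and untreated JAK2V617F+ cells, and the same 3 treatments of JAK2V617F- cells. Replicate 3 of untreated JAK2V617F+ cells was excluded by the study for its quality, which left 8 JAK2V617F+ and 9 JAK2V617F- arrays. The JAK2V617F- cells shared the diseased marrow and the cytokines with the JAK2V617F+ cells, so no cells from healthy mice or from cultures without IL-3 and SCF enter any comparison.

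Mast cells and basophils store large amounts of ready-made proteases in their secretory granules, bound to the proteoglycan serglycin, and release them when antigen crosslinks IgE on the high-affinity receptor. Tpsb2 and Tpsab1 encode tryptases, trypsin-like serine proteases that assemble into tetramers on heparin. Cma1 encodes a chymase and Cpa3 the mast cell carboxypeptidase, a zinc exopeptidase that is stored together with that chymase. Mcpt8 encodes a serine protease that marks mouse basophils. SCF, the ligand of Kit, sustains mast cells, and IL-3 expands both basophils and mast cells from mouse marrow in culture.

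The 5 genes lie at 3 loci of the mouse genome (RefSeq positions, GRCm38.p6). Tpsab1 (chr17:25343245-25345562) and Tpsb2 (chr17:25366308-25368096) are neighbours, 20746 bases apart. Tpsab1 is annotated as a transcribed pseudogene in the C57BL/6J reference, whereas the arrays were made from Balb/c cells. The 2 tryptases are close paralogs and the probes' own sequences were not used here, so a share of signal from the other tryptase cannot be told apart. Cma1 (chr14:55941451-55944675) and Mcpt8 (chr14:56082163-56085499) lie 137488 bases apart in a cluster of granule serine proteases. Cpa3 (chr3:20215616-20242209) lies on a chromosome with no other member. RefSeq promoter sequences were at hand for 3 of the 5 genes and are shown because Cpa3 and Cma1 differed between the genotypes while Mcpt8, in the same protease cluster as Cma1, did not pass the test. Each is the 250 bases before the transcription start that the promoter table uses, on the gene's own strand. That start is the gene's outer boundary for Cma1 but lies 28 bases inside the Cpa3 gene and 302 bases inside the Mcpt8 gene as positioned above, and distances below are counted from it. The sequences are shown with matches to the letters searched for GATA, MITF, STAT, RUNX and TATA motifs in capitals.
Cpa3 (chr3:20242182-20242431, minus strand): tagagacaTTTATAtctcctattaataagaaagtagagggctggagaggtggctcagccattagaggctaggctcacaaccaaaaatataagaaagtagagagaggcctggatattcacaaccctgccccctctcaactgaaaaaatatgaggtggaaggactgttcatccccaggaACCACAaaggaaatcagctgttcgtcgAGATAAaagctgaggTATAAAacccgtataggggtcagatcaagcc
Cma1 (chr14:55944676-55944925, minus strand): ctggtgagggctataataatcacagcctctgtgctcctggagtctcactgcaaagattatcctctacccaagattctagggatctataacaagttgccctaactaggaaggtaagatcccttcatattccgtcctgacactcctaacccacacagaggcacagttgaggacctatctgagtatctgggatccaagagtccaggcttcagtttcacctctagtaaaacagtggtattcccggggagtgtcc
Mcpt8 (chr14:56085198-56085447, minus strand): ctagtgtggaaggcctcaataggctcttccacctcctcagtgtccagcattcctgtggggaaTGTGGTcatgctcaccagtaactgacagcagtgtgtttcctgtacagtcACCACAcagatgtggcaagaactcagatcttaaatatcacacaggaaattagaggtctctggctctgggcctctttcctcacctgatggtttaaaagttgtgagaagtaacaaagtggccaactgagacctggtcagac

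Motifs were searched on both strands, and their share was taken over the same 250 bases of all 32851 promoters in the table. The Cpa3 promoter held 1 GATA match (AGATAA or TGATAA), whose first base lies 46 bases before the start and which 16.6% of all promoters also hold. It held 1 RUNX match (TGTGGT, 14.05% of promoters), at 73 bases before the start, and 2 TATA matches (TATAAA, 12.4% of promoters), of which the nearer began 31 bases before the start. Of these letters, the Cma1 promoter held no match. The Mcpt8 promoter held 2 RUNX matches, at 188 and 139 bases before the start. General E-boxes (CANNTG, 66.2% of promoters) occurred 2 times in Cpa3, 1 time in Cma1 and 3 times in Mcpt8. The E-box forms read by MITF (CATGTG or CACGTG, 17.6% of promoters; both are also CANNTG) and the STAT letters (TTCNNNGAA, 7.02% of promoters) had no match in any of the 3. These matches describe letters in this window and were not tied to the measured signals by any test.

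The 2 tryptases had the widest separation of the 5 genes between the genotypes. Tpsab1 had log2 signals of 13.39, 12.02 and 12.50 in TNFR2 BA JAK2V617F+ cells, of 12.43, 10.68 and 12.23 in TNFR1 BA JAK2V617F+ cells and of 12.23 and 12.60 in untreated JAK2V617F+ cells (replicates in number order here and below). In JAK2V617F- cells it had 2.33, 6.72 and 3.06 with TNFR2 BA, 2.25, 2.25 and 2.49 with TNFR1 BA, and 2.25, 6.45 and 2.25 untreated. All 8 JAK2V617F+ arrays lay above all 9 JAK2V617F- arrays, with a gap of 3.96 between the lowest of the first and the highest of the second. Among the JAK2V617F- arrays, replicate 2 of the TNFR2 BA and of the untreated cells stood above the other 7, which lay between 2.25 and 3.06. The lowest Tpsab1 signal, 2.25, was repeated to every deposited digit on 3 arrays, and the lowest value of the whole table was 2.22, so differences from such arrays may be understated. Over the 3 treatments, Tpsab1 averaged 12.26 ± 0.76 in JAK2V617F+ cells (SD, n = 8) and 3.34 ± 1.86 in JAK2V617F- cells (SD, n = 9).

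Tpsb2 had log2 signals of 10.65, 9.67 and 10.18 in TNFR2 BA JAK2V617F+ cells, of 8.33, 8.92 and 10.76 in TNFR1 BA JAK2V617F+ cells and of 10.59 and 11.34 in untreated JAK2V617F+ cells. In JAK2V617F- cells it had 2.83, 2.60 and 2.55 with TNFR2 BA, 2.60 on each of the 3 arrays with TNFR1 BA, and 3.43, 3.31 and 2.74 untreated. The genotypes did not overlap, with a gap of 4.90, and 1 value was shared to every digit by 4 of the JAK2V617F- arrays. The JAK2V617F- arrays therefore lay in a narrow band near the lowest signals of the table, also on the pair of replicate 2 arrays where Tpsab1 was at 6.72 and 6.45. Tpsb2 averaged 10.06 ± 1.02 in JAK2V617F+ cells (SD, n = 8) and 2.81 ± 0.33 in JAK2V617F- cells (SD, n = 9).

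Cma1, the chymase, had log2 signals of 13.998, 12.94 and 13.82 in TNFR2 BA JAK2V617F+ cells, of 13.81, 13.05 and 13.74 in TNFR1 BA JAK2V617F+ cells and of 13.78 and 13.27 in untreated JAK2V617F+ cells. In JAK2V617F- cells it had 8.22, 7.998 and 9.84 with TNFR2 BA, 2.98, 8.28 and 9.86 with TNFR1 BA, and 6.68, 8.39 and 8.96 untreated. The JAK2V617F+ arrays lay within 1.06 log2 units of each other, and the JAK2V617F- arrays, all below them, ranged over 6.88. Replicate 3 was the highest JAK2V617F- array under each treatment, and 1 array, replicate 1 with TNFR1 BA, lay at 2.98, apart from the next at 6.68. Cma1 averaged 13.55 ± 0.40 in JAK2V617F+ cells (SD, n = 8) and 7.91 ± 2.09 in JAK2V617F- cells (SD, n = 9).

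Cpa3, the carboxypeptidase, had strong signals in both genotypes. Its log2 signals were 14.55, 13.81 and 14.47 in TNFR2 BA JAK2V617F+ cells, 14.03, 13.67 and 14.26 in TNFR1 BA JAK2V617F+ cells and 13.94 and 14.06 in untreated JAK2V617F+ cells. In JAK2V617F- cells they were 10.88, 11.21 and 12.88 with TNFR2 BA, 10.58, 11.78 and 12.59 with TNFR1 BA, and 11.22, 11.98 and 12.68 untreated. The genotypes did not overlap, although the gap was only 0.79, since replicate 3 of the JAK2V617F- cells came close to the lowest JAK2V617F+ array. Under each treatment, the JAK2V617F- arrays were lowest in replicate 1 and highest in replicate 3. Cpa3 averaged 14.10 ± 0.31 in JAK2V617F+ cells (SD, n = 8) and 11.76 ± 0.83 in JAK2V617F- cells (SD, n = 9).

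Mcpt8, the basophil protease, was the one member whose genotypes overlapped. It had log2 signals of 12.40, 12.47 and 13.96 in TNFR2 BA JAK2V617F+ cells, of 11.93, 12.94 and 14.14 in TNFR1 BA JAK2V617F+ cells and of 11.65 and 12.24 in untreated JAK2V617F+ cells. In JAK2V617F- cells it had 12.02, 11.00 and 12.42 with TNFR2 BA, 11.11, 12.21 and 11.54 with TNFR1 BA, and 11.63, 12.42 and 12.001 untreated. Of the 8 JAK2V617F+ arrays, 4 lay above every JAK2V617F- array, and the highest pair of these was replicate 3 with TNFR1 BA and with TNFR2 BA. Mcpt8 averaged 12.72 ± 0.91 in JAK2V617F+ cells (SD, n = 8) and 11.82 ± 0.53 in JAK2V617F- cells (SD, n = 9).

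**Figure D1:**
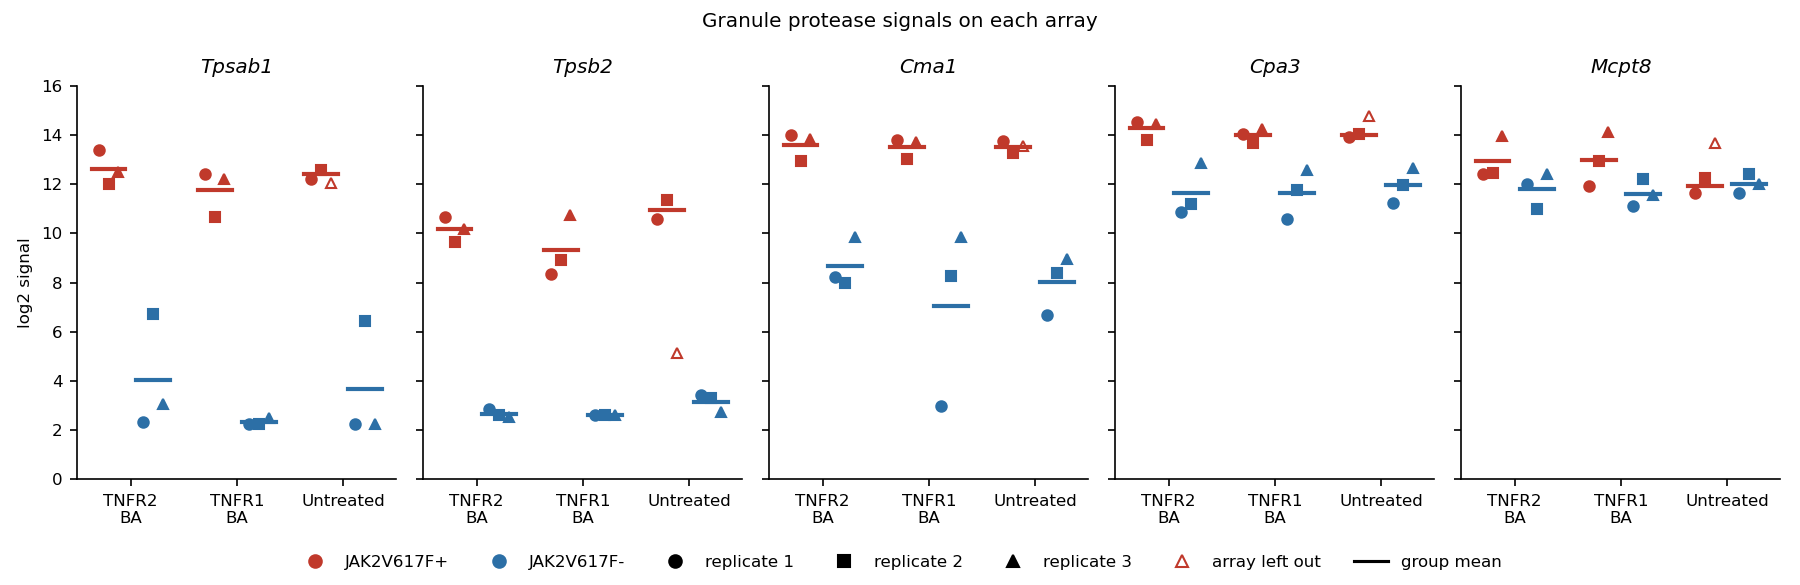
The log2 signal of each granule protease (y axis) on every array, by treatment (x axis) and genotype, with JAK2V617F+ in red left of JAK2V617F- in blue, marker shapes for the replicate number, horizontal bars for the mean of the arrays used and an open triangle for the array left out. The red and blue points are separate for Tpsab1, Tpsb2, Cma1 and Cpa3 and overlap for Mcpt8.

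The first comparison asked whether the proteases differed between JAK2V617F+ and JAK2V617F- cells, with the 3 treatments weighted equally. Both tryptases, the chymase and the carboxypeptidase were higher in JAK2V617F+ cells. Tpsab1 was higher by 8.94 on the log2 scale (SE 0.76, limma adjusted p = 3.3e-06) and Tpsb2 by 7.35 (SE 0.61, adjusted p = 3.17e-06). Cma1 was higher by 5.64 (SE 0.70, adjusted p = 0.0004) and Cpa3 by 2.33 (SE 0.31, adjusted p = 0.000798). Mcpt8 differed by 0.81, with a 95% interval of 0.13 to 1.50, and did not pass the test (adjusted p = 0.40). Thus 4 of the 5 members passed the threshold, all of them higher in JAK2V617F+ cells, where 31 of all 10335 probe sets (0.3%) were called higher. Every JAK2V617F+ array lay above every JAK2V617F- array for 4 of the 5 members and for 23 of all probe sets (0.223%). The members were chosen with earlier results of these data known, so these shares, here and within treatments, do not test the group. In sorted cells measured in bulk, more cells of a type and more RNA per cell cannot be told apart.

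Leaving out any single array kept the 4 calls, and the Cma1 difference was 4.96 without replicate 1 of TNFR1 BA JAK2V617F- cells, the array at 2.98. Without the arrays of experiment 2, Cma1 (difference 6.07, adjusted p = 0.109) and Cpa3 (2.39, adjusted p = 0.145) lost their calls, and without those of experiment 1 Cpa3 did (1.87, adjusted p = 0.147). The tryptases kept theirs in each case. In the methods' paired t-test over the 8 pairs, 3 of the 5 members were called, beside 10 of all probe sets called higher. Cma1, with a mean difference of 5.77, was not called (adjusted p = 0.102). That test took the 8 pairs as independent, although they came from 3 experiments. The limma fit without a block likewise took the 17 arrays as independent.

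Here and throughout, arrays with the same replicate number were taken as the same experiment, which the sample labels do not state. Each JAK2V617F+ array was set against the JAK2V617F- array of the same number and treatment, which gave 8 pairs per gene. All 8 differences were above 0 for the tryptases, Cma1 and Cpa3, and 7 of 8 for Mcpt8. They ranged from 5.30 to 11.06 for Tpsab1, from 5.73 to 8.16 for Tpsb2, from 3.88 to 10.83 for Cma1, from 1.59 to 3.67 for Cpa3 and from -0.18 to 2.60 for Mcpt8. The mean differences varied between experiments. Cpa3 averaged a difference of 3.28 in experiment 1, 2.19 in experiment 2 and 1.63 in experiment 3, and Cma1 averaged 7.90, 4.86 and 3.93. Mcpt8 averaged 0.41, 0.67 and 2.07 and Tpsb2 averaged 6.90, 7.14 and 7.90, so that both were highest in experiment 3. The means of experiment 3 cover 2 pairs and no untreated pair. For Mcpt8 the untreated pair was the lowest in experiments 1 and 2, at 0.02 and -0.18. For Tpsab1 the smallest mean difference was in experiment 2, at 6.63, against 10.41 in experiment 1 and 9.59 in experiment 3.

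**Figure D2:**
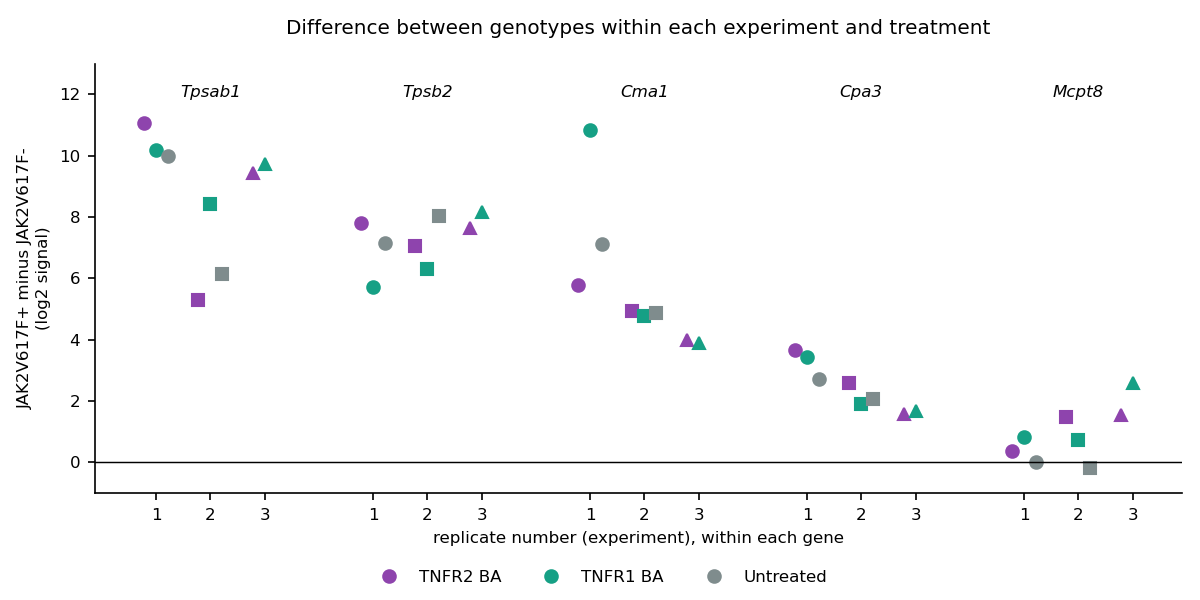
The JAK2V617F+ minus JAK2V617F- difference in log2 signal (y axis) within each experiment and treatment, by gene and replicate number (x axis), coloured by treatment, with no pair for untreated cells of experiment 3, whose JAK2V617F+ array was left out. All points of the tryptases, Cma1 and Cpa3 lie above 0, and those of Cpa3 and Cma1 are highest in experiment 1.

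The genotypes were then compared within each treatment. In untreated cells, 2 of the 5 members were called higher in JAK2V617F+ cells, against 6 of all probe sets (0.0581%). These were Tpsab1, by 8.77 (SE 1.42, limma adjusted p = 0.0178), and Tpsb2, by 7.81 (SE 1.13, adjusted p = 0.00749). Cma1 differed by 5.51 (adjusted p = 0.213), Cpa3 by 2.04 (adjusted p = 0.385) and Mcpt8 by -0.07 (adjusted p = 0.996). The untreated JAK2V617F+ cells had no array of experiment 3, while the untreated JAK2V617F- cells did. With the experiment as a block, the Mcpt8 difference was 0.195. Without replicate 2 of untreated JAK2V617F+ cells neither tryptase passed (adjusted p = 0.129 for Tpsab1 and 0.0843 for Tpsb2), and without replicate 1 or replicate 3 of untreated JAK2V617F- cells Tpsab1 did not (8.07, adjusted p = 0.107 in both fits). Without replicate 2 of untreated JAK2V617F- cells the Tpsab1 difference was 10.17. Without replicate 1 of TNFR1 BA JAK2V617F- cells, the array of the low Cma1 signal, Cma1 was called here (adjusted p = 0.00401).

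With TNFR1 BA, 3 of the 5 members were called higher in JAK2V617F+ cells, against 8 of all probe sets (0.0774%). Tpsab1 was higher by 9.45 (SE 1.27, limma adjusted p = 0.00263), Tpsb2 by 6.74 (SE 1.01, adjusted p = 0.00717) and Cma1 by 6.49 (SE 1.17, adjusted p = 0.0357). Cpa3 differed by 2.34 (adjusted p = 0.19) and Mcpt8 by 1.38 (adjusted p = 0.694). Cma1 lost its call when any 1 of 10 arrays was left out. These were each TNFR1 BA JAK2V617F+ array (adjusted p of 0.18, 0.124 and 0.165 without replicates 1, 2 and 3) and 7 arrays of the other treatments (adjusted p of 0.0526 to 0.0661), namely all TNFR2 BA and untreated JAK2V617F+ arrays, replicate 2 of TNFR2 BA JAK2V617F- cells and replicate 3 of untreated JAK2V617F- cells. Without replicate 1 of TNFR1 BA JAK2V617F- cells, the array at 2.98, the Cma1 difference was 4.46 (adjusted p = 0.0282), and it was 7.11 and 7.90 without replicates 2 and 3 of those cells. Tpsb2 lost its call without replicate 3 of TNFR1 BA JAK2V617F+ cells (6.02, adjusted p = 0.0774), and with all 18 arrays (adjusted p = 0.11). Cma1 also lost its call without a variance trend (adjusted p = 0.141) and with signals under 4 set to 4 (adjusted p = 0.0575).

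With TNFR2 BA, 2 of the 5 members were called higher in JAK2V617F+ cells, against 4 of all probe sets (0.0387%). Tpsab1 was higher by 8.60 (SE 1.27, limma adjusted p = 0.00923) and Tpsb2 by 7.51 (SE 1.01, adjusted p = 0.00431). Cma1 differed by 4.90 (adjusted p = 0.227), Cpa3 by 2.62 (adjusted p = 0.0734) and Mcpt8 by 1.13 (adjusted p = 0.883). Without replicate 1 of TNFR2 BA JAK2V617F+ cells neither tryptase passed (adjusted p = 0.0626 and 0.0521), and without replicate 3 of those cells Tpsab1 did not (adjusted p = 0.0534). The Tpsab1 difference was 7.75 without replicate 1 and 9.94 without replicate 2 of TNFR2 BA JAK2V617F- cells, both past the threshold. Without replicate 1 of TNFR1 BA JAK2V617F- cells, which belongs to another treatment but enters the shared variance, Cma1 (adjusted p = 0.00435) and Cpa3 (adjusted p = 0.0449) were called too, and without replicate 3 of TNFR2 BA JAK2V617F- cells Cpa3 was (3.23, adjusted p = 0.0161). With the experiment as a block, Cpa3 passed in each treatment, with a difference of 2.62 under TNFR2 BA (adjusted p = 0.00973), of 2.34 under TNFR1 BA (adjusted p = 0.0159) and of 2.37 in untreated cells (adjusted p = 0.0455). Without the arrays of any 1 experiment, no tryptase passed within a treatment.

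The second question was whether blocking either TNF receptor changed the proteases. No member passed the threshold against untreated cells with either BA in either genotype. In JAK2V617F+ cells, limma called 0 of the 5 members with TNFR2 BA, where it called 3 of all probe sets in either direction (0.029%), and 0 of the 5 with TNFR1 BA, where it called 1 (0.00968%). In JAK2V617F- cells it called 0 of 5 members and 0 of all probe sets (0%) with each BA, while 255 probe sets with TNFR2 BA and 385 with TNFR1 BA had an unadjusted p under 0.05. No member had an unadjusted p under 0.05 in any of the 4 comparisons, and the methods' paired t-test called 0 members in each.

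The intervals of these differences were wide for the tryptases and Cma1. In JAK2V617F+ cells, Tpsab1 differed from untreated cells by 0.22 with TNFR2 BA (95% interval -2.76 to 3.21) and by -0.63 with TNFR1 BA (-3.62 to 2.35). Tpsb2 differed by -0.80 with TNFR2 BA (-3.18 to 1.58) and by -1.63 with TNFR1 BA (-4.01 to 0.76). Cma1 differed by 0.06 with TNFR2 BA (-2.68 to 2.81) and by 0.01 with TNFR1 BA (-2.74 to 2.75). Changes of up to 2 log2 units in either direction are therefore inside the interval for Tpsab1 and Cma1 under both BAs. The variance behind these intervals is shared by all 6 groups, among them the TNFR1 BA JAK2V617F- cells with the Cma1 array at 2.98. The 8 JAK2V617F+ arrays themselves lay within 1.06 log2 units of each other for Cma1, so its intervals do not reflect their spread alone. With arrays or experiments left out, these Cma1 differences ranged from -0.19 to 0.39 (TNFR2 BA) and from -0.25 to 0.26 (TNFR1 BA).

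Cpa3 and Mcpt8 had narrower intervals. In JAK2V617F+ cells, Cpa3 differed from untreated cells by 0.28 with TNFR2 BA (95% interval -0.93 to 1.49) and by -0.01 with TNFR1 BA (-1.22 to 1.20). Mcpt8 differed by 0.998 with TNFR2 BA (-0.27 to 2.27) and by 1.06 with TNFR1 BA (-0.22 to 2.33). The untreated JAK2V617F+ group held no array of experiment 3. In that experiment Mcpt8 averaged 14.05 in JAK2V617F+ cells, against 11.99 in experiment 1 and 12.55 in experiment 2. With the experiment as a block, the Mcpt8 differences were 0.73 (TNFR2 BA) and 0.79 (TNFR1 BA). With arrays or experiments left out, the lowest was 0.49 for each BA. For Mcpt8, the lowest TNFR2 BA array was at 12.40 and the lowest TNFR1 BA array at 11.93, beside 11.65 and 12.24 on the untreated JAK2V617F+ arrays. Between the BAs, Mcpt8 differed by only -0.06. The array left out, untreated JAK2V617F+ replicate 3, had an Mcpt8 signal of 13.67, above 2 of the 3 TNFR2 BA arrays.

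In JAK2V617F- cells the tryptase differences started from signals near the lowest value. Tpsab1 differed from untreated cells by 0.39 with TNFR2 BA (95% interval -2.28 to 3.06) and by -1.32 with TNFR1 BA (-3.99 to 1.35), and Tpsb2 by -0.50 (-2.63 to 1.64) and -0.56 (-2.69 to 1.58) for the same BAs. Cma1 differed by 0.68 with TNFR2 BA (-1.78 to 3.13) and by -0.97 with TNFR1 BA (-3.43 to 1.48), and the TNFR1 BA group held the array at 2.98. Cpa3 differed by -0.30 with TNFR2 BA (-1.38 to 0.78) and by -0.31 with TNFR1 BA (-1.38 to 0.77). Mcpt8 differed by -0.21 with TNFR2 BA (-1.34 to 0.93) and by -0.40 with TNFR1 BA (-1.54 to 0.74).

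**Figure D3:**
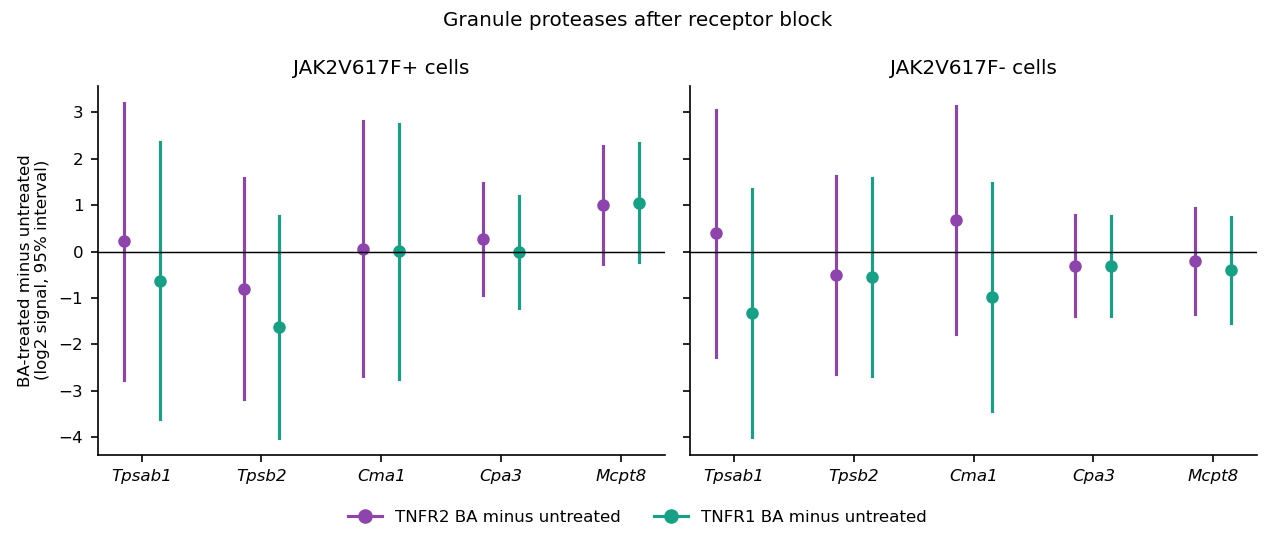
The BA-treated minus untreated difference in log2 signal (y axis) of each protease (x axis), with 95% intervals from limma, for TNFR2 BA and TNFR1 BA in JAK2V617F+ cells (left) and JAK2V617F- cells (right). All 20 intervals include 0, and those of Cpa3 and Mcpt8 are the narrowest.

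The BAs were also set against each other at the same dose and time. In JAK2V617F+ cells, TNFR2 BA minus TNFR1 BA was 0.86 for Tpsab1 (95% interval -1.81 to 3.52), 0.83 for Tpsb2 (-1.30 to 2.96), 0.06 for Cma1 (-2.40 to 2.51), 0.29 for Cpa3 (-0.79 to 1.37) and -0.06 for Mcpt8 (-1.20 to 1.08). Limma called 0 of 5 members and 0 of all probe sets (0%) in this comparison, where 452 probe sets had an unadjusted p under 0.05. It also called 0 of 5 members and 0 of all probe sets (0%) between the BAs in JAK2V617F- cells, where 382 probe sets had an unadjusted p under 0.05. Whether a BA acted differently in JAK2V617F+ than in JAK2V617F- cells was tested as an interaction. For TNFR2 BA and for TNFR1 BA, limma called 0 of 5 members and 0 of all probe sets (0%), and 396 and 540 probe sets had an unadjusted p under 0.05, none of them a member. These comparisons share their untreated arrays.

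The patterns of the members were compared with all 9631 other genes, by the root mean square difference of log2 signals over the 17 arrays after each gene was centred on its mean. This likeness is a description and carries no test. For the members called between the genotypes, it weighs the genotype difference most. Mcpt8 varied by only 0.82 (root mean square) about its mean, so a small value for it need not show a shared pattern. Tpsab1 and Tpsb2 were most like the same 3 genes, namely Mycn (a MYC-family transcription factor), Lif (a cytokine of the IL-6 family) and Podxl (a sialomucin of the CD34 family). Their root mean square differences from Tpsab1 were 1.42, 1.45 and 2.49, and from Tpsb2 they were 0.95, 1.04 and 1.51, beside 1.62 between the 2 tryptases. Mycn itself was higher in JAK2V617F+ cells by 8.30 (SE 0.62, adjusted p = 1.27e-06), Lif by 7.17 (SE 0.68, adjusted p = 1.04e-05) and Podxl by 5.58 (SE 0.69, adjusted p = 0.0004).

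Cma1 was most like Tph1 (tryptophan hydroxylase, which makes serotonin in mast cells), with a root mean square difference of 1.28, then Maob (monoamine oxidase B), with 1.47, and Zbtb38 (a zinc finger protein), with 1.65. Tph1 was higher in JAK2V617F+ cells by 6.18 (adjusted p = 9.05e-06) and Maob by 5.07 (adjusted p = 0.00159), while Zbtb38 differed by 3.06 (adjusted p = 0.108). Cpa3 was most like Alox5 (5-lipoxygenase, of leukotriene synthesis) at 0.751, Gzmb (granzyme B) at 0.752 and Fcer1a (the IgE-binding chain of the high-affinity receptor) at 0.791. Cpa3 and Mcpt8 were 1.02 apart, the smallest distance of any pair of members. They also varied least about their own means (root mean square 1.32 and 0.82), so this distance does not show a shared pattern. The tryptases, 1.62 apart, varied by 4.66 (Tpsab1) and 3.68 (Tpsb2) about theirs. Mcpt8 was most like Mylpf (a myosin light chain) at 0.543, Itpk1 (an inositol phosphate kinase) at 0.604 and Fcer1g (the signalling chain of Fc receptors) at 0.608. None of these 3 passed the threshold between the genotypes (adjusted p of 0.572, 0.744 and 0.662).

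Neighbouring genes were looked at after the members' values had been seen. In the chromosome 14 cluster, Cma1 differed between the genotypes by 5.64 and Mcpt8 by 0.81. Ctsg (cathepsin G), 14386 bases from Mcpt8, differed by 0.10 (adjusted p = 0.799), and Gzmb, 173337 bases from Mcpt8, was higher by 1.52 (SE 0.25, adjusted p = 0.00708). Within 100000 bases of Cma1, 3 protein-coding genes outside the protease family were measured, and their differences of 0.21 to 0.92 did not pass the threshold (adjusted p of 0.787 to 0.955). Of the 2 measured neighbours of Cpa3 at that distance, Hltf differed by -1.32 (adjusted p = 0.691) and Gyg by 0.03 (adjusted p = 0.989). No protein-coding neighbour of the tryptases other than each other was measured at that distance.

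Other genes of the granule and of its cells were read from lists chosen with earlier results of these data known, in the genotype comparison over the 3 treatments. Over all 9636 genes, 30 were higher in JAK2V617F+ cells (0.311%), 6 were lower and the median difference was 0.01. In the same limma comparison, 991 of the 9636 genes had an unadjusted p under 0.05, and 50.6% had a difference above 0. Of 8 other mast cell and basophil proteases listed, 1 was measured: Gzmb averaged 13.36 ± 0.31 in JAK2V617F+ cells and 11.82 ± 0.70 in JAK2V617F- cells and passed the test, as given above. It lost its call without the arrays of experiment 1 or of experiment 3.

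Of 12 measured genes of granule storage, amine synthesis and protease processing, 1 was higher and 0 were lower, with a median difference of 0.28. Differences were above 0 for 8 of the 12, and the genes named below are all among these. With the experiment as a block, and without replicate 1 of untreated JAK2V617F+ or replicate 2 of untreated JAK2V617F- cells, 2 were called. The gene called was Tph1, at 12.44 ± 0.35 in JAK2V617F+ cells and 6.29 ± 2.09 in JAK2V617F- cells. Hdc, the histidine decarboxylase that makes histamine, differed by 3.02 (adjusted p = 0.0627). Ndst2, which sulfates heparin, differed by 1.92 (adjusted p = 0.507) and Ctsd, cathepsin D, by 0.81 (adjusted p = 0.253). Srgn, the serglycin core on which the proteases are packed, was at 14.48 ± 0.20 in JAK2V617F+ cells and 14.24 ± 0.16 in JAK2V617F- cells, a difference of 0.25 (adjusted p = 0.413).

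Among 8 measured receptors of mast cells and basophils, 3 were higher, 0 were lower and all 8 differences were above 0, with a median of 1.58. Cd200r3, an activating receptor of basophils and mast cells, was higher by 5.16 (SE 0.91, limma adjusted p = 0.0109), Fcer1a by 2.91 (SE 0.50, adjusted p = 0.00897) and Csf2rb2, a beta chain of the IL-3 receptor, by 1.55 (SE 0.27, adjusted p = 0.0109). Ptger3, a prostaglandin E2 receptor, differed by 2.78 (adjusted p = 0.335). Without replicate 2 of untreated JAK2V617F+ cells 1 receptor was called, and without the arrays of experiment 1 or of experiment 2 the count was 0.

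Of 12 measured transcription factors of these lineages, 0 passed in limma (4 at an unadjusted p under 0.05). Their median difference was 0.66, and 9 of the 12 differences were above 0. With the experiment as a block 1 factor was called, as without replicate 2 of untreated JAK2V617F- cells. Ikzf2 differed by 2.59 (adjusted p = 0.412), Tal1 by 1.70 (adjusted p = 0.0639), Gata1 by 1.50 (adjusted p = 0.328) and Stat5a by 1.27 (adjusted p = 0.551). Mitf, which drives mast cell genes, was at 9.23 ± 1.25 in JAK2V617F+ cells and 8.59 ± 1.42 in JAK2V617F- cells. Of 14 measured genes of granule exocytosis, 0 passed in limma (3 at an unadjusted p under 0.05). Without replicate 1 of untreated JAK2V617F+ cells, 1 of these genes was called lower. The median difference was 0.16, and 8 of the 14 differences were above 0. Rab27b, a small GTPase of granule docking, differed by 2.15 (adjusted p = 0.424), Stxbp3 by -2.02 (adjusted p = 0.328), Vamp2 by 1.55 (adjusted p = 0.49) and Rab27a by -1.34 (adjusted p = 0.435).

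Granule genes of other leukocytes gave medians below 0 for neutrophils and for lymphocytes. Of 10 measured neutrophil granule genes 0 passed in limma, also 0 at an unadjusted p under 0.05. Their median difference was -0.31, and 3 of the 10 differences were above 0. The members named by size were Camp (-2.66, adjusted p = 0.51), Ltf (-1.65, adjusted p = 0.678), Lcn2 (-1.24, adjusted p = 0.753) and Ngp (-0.93, adjusted p = 0.631). Of 3 eosinophil granule genes 0 passed in limma, also 0 at an unadjusted p under 0.05 (median 1.20). Prg3 differed by 1.97 (adjusted p = 0.651), Epx by 1.20 (adjusted p = 0.68) and Prg2 by -0.87 (adjusted p = 0.652). Of 4 lymphocyte granule genes 1 was higher (median -0.57), and it was again Gzmb. The others were Gzma (-3.10, adjusted p = 0.319), Nkg7 (-0.90, adjusted p = 0.404) and Prf1 (-0.25, adjusted p = 0.908). Of 6 protease inhibitors 0 passed in limma, with 3 at an unadjusted p under 0.05 (median -0.07, with 2 differences above 0). These 6 included Serpinb6b at -2.84 (adjusted p = 0.295), Serpinb1a at 1.12 (adjusted p = 0.347), Cst3 at -0.74 (adjusted p = 0.213) and Serpinb9 at 0.17 (adjusted p = 0.971).

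**Figure D4:**
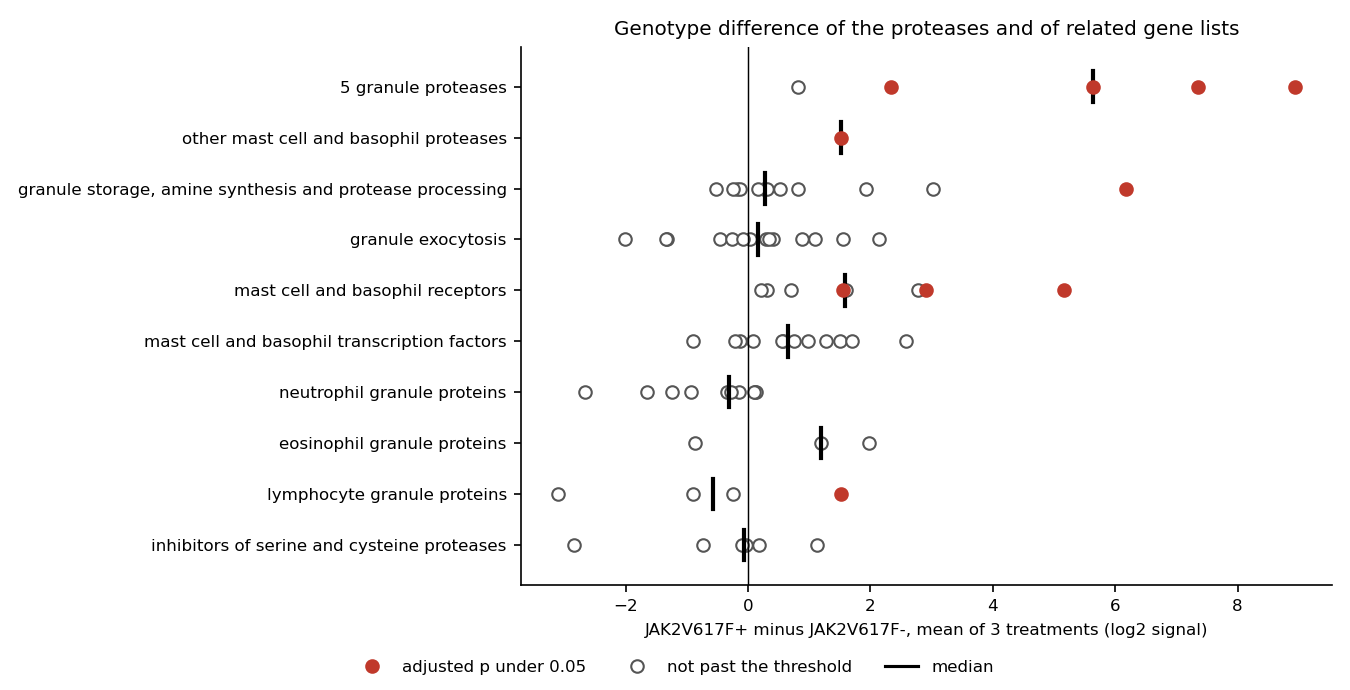
The JAK2V617F+ minus JAK2V617F- difference in log2 signal over the 3 treatments (x axis) for each measured gene of the lists (y axis), with the 5 granule proteases on top, filled red points for genes with an adjusted p under 0.05, open points for the others and bars for list medians. The proteases reach from 0.81 to 8.94, and Tph1 and the receptors Cd200r3, Fcer1a and Csf2rb2 are called, as is Gzmb.

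Markers of other cells were set beside these differences. All 7 measured erythroid markers had differences above 0, with a median of 2.17 and 6 at an unadjusted p under 0.05. Car2 and Ermap passed the threshold (limma adjusted p of 0.0132 and 0.0182). The mean log2 signal of the 7 markers lay between 8.63 and 11.55 on JAK2V617F+ arrays and between 6.996 and 9.20 on JAK2V617F- arrays. The 5 measured megakaryocyte markers lay between 5.28 and 8.12 in JAK2V617F+ cells and between 4.65 and 5.43 in JAK2V617F- cells (median difference 1.54, 0 past the threshold, 2 at an unadjusted p under 0.05). The 5 B cell markers (2.55 to 5.16 in JAK2V617F+ cells, 2.40 to 6.92 in JAK2V617F- cells) and the 6 monocyte markers (4.49 to 8.09 in JAK2V617F+ cells, 5.36 to 9.16 in JAK2V617F- cells) had medians of -1.23 and -0.97, with 0 past the threshold and 0 and 2 at an unadjusted p under 0.05. The part of these cells in the protease differences was not tested. As to the sort, Kit had log2 signals between 3.71 and 9.95 in JAK2V617F+ cells and between 4.19 and 9.20 in JAK2V617F- cells, and its genotype difference was 0.21 (adjusted p = 0.957). Array medians lay between 7.41 and 7.75 on the 17 arrays used.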

How the data were processed

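RNA of Lin-Kit+ GFP+ and GFP- cells was amplified, labelled with biotin and hybridised to Affymetrix mouse expression arrays (18 arrays, 6 groups). Affymetrix Expression Console, named in the paper's methods and the submitters' processing notes, gave the log2 values that the authors deposited for each probe set. Their normalization was not given in the sources used here. Values were used as deposited, with no detection calls or depth, so the number of arrays limits the precision. Symbols came from the platform annotation (9651 probe sets with 1 symbol, 27 with several, 657 with none), and 9625 matched RefSeq GRCm38.p6 by Entrez ID.

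Group means of 17 arrays were fitted with limma 3.58.1 in R 4.3.3 (moderated variances with a trend, Benjamini-Hochberg adjustment over all 10335 probe sets, threshold 0.05, no block) for 12 comparisons. The script was tested on simulated data. The study describes 3 independent experiments with every treatment and genotype, so arrays with the same replicate number were taken as paired by experiment. Their deviations from group means correlated by 0.00828, 0.0714 and 0.144 on average within numbers 1, 2 and 3, and by -0.0328 between numbers. The text names every member, the 3 genes most like each, and of each list the genes past the threshold and then those of largest difference, up to 4, besides Srgn, Mitf and Kit, added for their roles. Where a gene had several probe sets, the brightest on average stood for it. The members and lists were chosen with earlier results of these data known. Alternatives were all 18 arrays, a replicate block, quantile normalization, fits of only the compared groups, array weights, no trend, leaving out dim probe sets, the methods' paired t-test, signals under 4 set to 4 (added after the data were seen), and leaving out arrays or experiments. Sequences are from RefSeq. Figures were drawn with matplotlib 3.10.9.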

Additional observations from a re-analysis of the deposited data

Results flagged for a closer look

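Of 10 sets of arrays (5 genes in 2 genotypes) tested for a sample far from the others, 1 was marked, where chance marks about 1 in 20. The Cma1 signal of 2.98 in replicate 1 of TNFR1 BA JAK2V617F- cells lay below the next JAK2V617F- array, at 6.68, by 0.537 of the whole range, above the critical value of 0.493. No BA effect on a member differed between the genotypes by the interaction test.

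The array that the study excluded, replicate 3 of untreated JAK2V617F+ cells, had a median log2 signal of 6.05, against 7.41 to 7.75 on the other arrays. Each member stood above the highest of the untreated JAK2V617F- arrays on it. Tpsab1 was at 12.04 (highest untreated JAK2V617F- array 6.45), Cma1 at 13.55 (8.96), Cpa3 at 14.78 (12.68) and Mcpt8 at 13.67 (12.42). Tpsb2 was at 5.14 (3.43), below the lowest of the other JAK2V617F+ arrays, at 8.33, while Tpsab1 on the same array lay within their range.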

How the results depend on the processing

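In the comparison over the 3 treatments, the tryptases kept their direction and their call under every alternative that measured them (28 for Tpsab1, 27 for Tpsb2), with differences of 7.70 to 10.07 and 6.16 to 7.64. Cma1 (4.46 to 6.38) and Cpa3 (1.87 to 2.74) kept their direction in all 28 and their call in 26 each. The number of members called was 4, and 2 to 4 when arrays or experiments were left out. Within treatments it was less stable. In untreated cells it was 2, and became 1 with all 18 arrays, 1 without dim probe sets, 1 with array weights, 0 in fits of only the compared groups, 0 by the methods' paired t-test and 0 to 3 with arrays left out. With TNFR1 BA it was 3, and became 2 with all 18 arrays, 2 without a variance trend, 2 with signals under 4 set to 4, 1 without dim probe sets, 0 in those same 2 fits and 0 to 3 with arrays left out. With TNFR2 BA it was 2, and became 1 with all 18 arrays, 1 without dim probe sets, 0 in those same 2 fits and 0 to 4 with arrays left out. Tpsb2 was not among the 5167 probe sets kept by the dim filter, and fits of 2 groups have fewer arrays; the cause of the other losses was not tested. The replicate block changed no call of a member other than that of Cpa3 within treatments, and took the count of probe sets called higher over the 3 treatments to 49, where the fit without it called 31, against 15 without dim probe sets and 10 by the paired t-test.

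Differences that changed sign were all uncalled. The Mcpt8 difference between untreated cells, -0.07, became 0.50 with all 18 arrays, 0.195 with the replicate block and 0.022 with array weights, and ranged from -0.37 to 0.22 with arrays left out. With all 18 arrays, Tpsb2 in JAK2V617F+ cells became 0.31 (TNFR1 BA) and 1.14 (TNFR2 BA). For Cma1 in JAK2V617F+ cells, the TNFR1 BA difference of 0.01 became -0.00195 with all 18 arrays, -0.531 with the block, -0.072 after quantile normalization, -0.0495 with array weights and -0.0977 by the paired t-test, and the TNFR2 BA difference of 0.06 became -0.473 with the block, -0.019 with array weights and -0.0541 by the paired t-test. Cpa3 with TNFR2 BA became -0.055 with the block. With arrays or experiments left out, the differences in JAK2V617F+ cells ranged from -1.14 to 0.0991 (Tpsab1, TNFR1 BA), -0.34 to 0.71 (Tpsab1, TNFR2 BA), -0.25 to 0.26 (Cma1, TNFR1 BA), -0.19 to 0.39 (Cma1, TNFR2 BA), -0.15 to 0.21 (Cpa3, TNFR1 BA), -0.18 to 0.38 (Cma1, TNFR2 BA minus TNFR1 BA) and -0.60 to 0.51 (Mcpt8, TNFR2 BA minus TNFR1 BA). In JAK2V617F- cells they ranged from -2.10 to 0.12 (Tpsab1, TNFR1 BA), -0.95 to 1.79 (Tpsab1, TNFR2 BA), -2.38 to 1.06 (Cma1, TNFR1 BA), -0.776 to 0.228 (Cpa3, TNFR1 BA), -0.91 to 0.0868 (Cpa3, TNFR2 BA) and -0.52 to 0.40 (Mcpt8, TNFR2 BA).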
